A study of Saccharomyces cerevisiae with 15 samples.

Results

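The step to the highest mannose concentration was described in a strain of the yeast Saccharomyces cerevisiae that lacks PMI40, by comparing the 3 arrays of cultures started with 5 g/L mannose with the 3 arrays of cultures started with 3 g/L. These 6 of the series' 15 arrays were chosen by their labelled concentration alone, and the comparison was made across all genes. In every group the pmi40 deletion strain (parent CEN.PK113-7A) grew in an aerated batch in mineral medium that held 15 g/L glucose beside the mannose, and RNA was taken 6 hours after inoculation. The other 9 arrays came from the same strain at 0.75, 1 and 1.5 g/L mannose, 3 arrays each, and no array of the parent strain was analysed here. The 3 arrays of a concentration carry 1 sample code, and the labels do not say that they came from separate cultures, so the p-values measure the spread between arrays, which may be technical. The labels give neither the cell density nor the sugar left in the medium at sampling.

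PMI40 encodes phosphomannose isomerase, which interconverts fructose 6-phosphate and mannose 6-phosphate. Mannose 6-phosphate is turned by SEC53 and PSA1 into GDP-mannose, the sugar donor for N-glycans, O-mannosylation, GPI anchors and the mannan of the yeast cell wall. A cell without the isomerase can neither make these from glucose nor burn mannose through glycolysis, so it needs mannose in the medium. Yeast cells are also known to switch on a common set of stress and reserve-carbohydrate genes through the factors Msn2 and Msn4, and genes for the use of non-fermentable carbon through Cat8 and Adr1, when preferred sugars run low.

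Signals of the 6 arrays were on 1 scale, with median signals of 23.9 to 27.0 at 5 g/L and 23.7 to 25.6 at 3 g/L. A signal of 13.5 or less was taken as background, the 95th percentile of 13 control probe sets for mouse and antisense sequences. The 3 g/L replicate 1 array was processed in another fluidics run from the other two and stood apart on the third principal axis, which held 7.47% of the variance. The ratio of 3′ to 5′ signal of SPT15, a sign of RNA integrity, was 4.44, 6.10 and 6.90 on the 5 g/L arrays, against 3.98, 3.82 and 3.69 on the 3 g/L arrays. The same ratio of ACT1 overlapped between the groups, at 1.49 to 2.14 for 5 g/L and 1.89 to 2.17 for 3 g/L. Whether the SPT15 difference had a part in the results below was not tested. PMI40 itself gave 252.6, 229.8 and 241.6 at 5 g/L, against 214.6, 237.3 and 210.0 at 3 g/L (log2 difference 0.13 ± 0.19 SE, adjusted p = 0.90). The labels do not place this probe set inside or outside the deletion, so its signal does not check the strain. Of the mating-type genes, the 6 a-specific ones had mean signals of 73.3 to 2005 at 5 g/L and 61.8 to 1464 at 3 g/L, while the 4 alpha-specific ones lay near background, at 7.13 to 27.3 and 8.13 to 24.1.

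Of 6959 probe sets tested, 68 differed between 5 and 3 g/L at an adjusted p below 0.05, which is 0.977% of those tested. They were very unequally divided, with 61 higher at 5 g/L (0.877%) and 7 lower (0.101%). The 61 stand for 54 named genes and 5 probe sets without a gene of their own, and the 7 for 6 named genes and 1 unnamed probe set. The log2 differences of the higher ones ran between 0.66 and 3.18 with a median of 1.05, while the median over all probe sets was 0.03. At an unadjusted p below 0.05 there were 646 probe sets (9.28%). Apart from any test, all 3 arrays of 5 g/L lay above all 3 of 3 g/L for 656 probe sets (9.43%) and below them for 337 (4.84%). All 68 that passed were among these. Lack of overlap stated below for a passing gene is therefore no separate support.

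**Figure D1:**
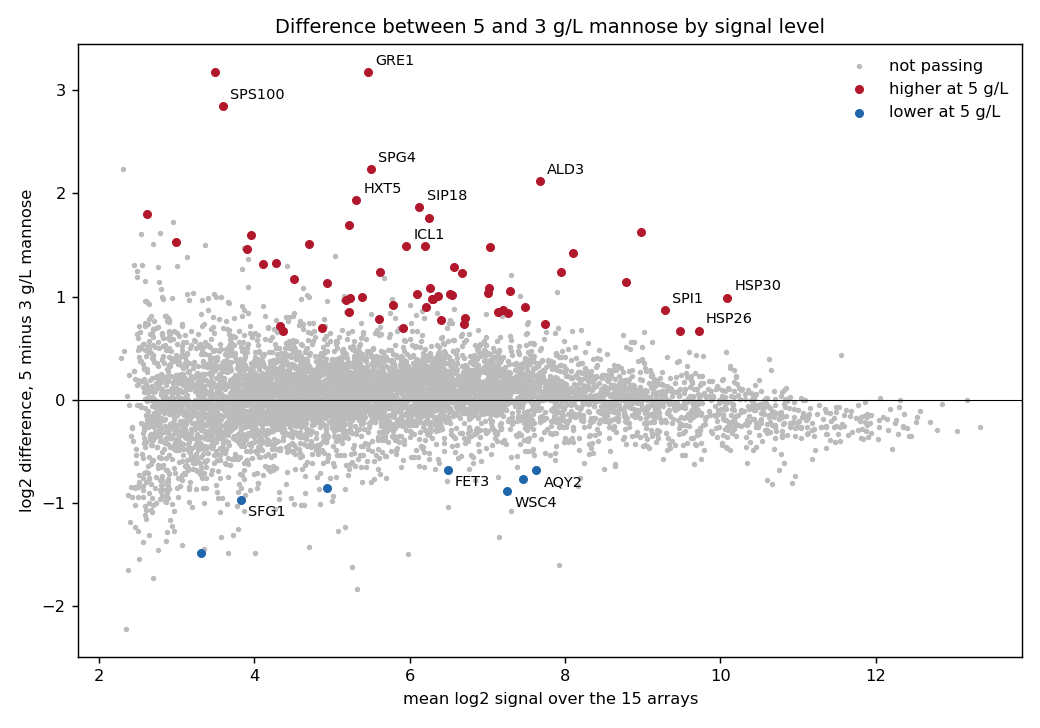
Each point is 1 of the 6959 probe sets tested, with its mean log2 signal over the 15 arrays on the x axis and the log2 difference of 5 minus 3 g/L mannose on the y axis. Red points passed as higher at 5 g/L (61) and blue points as lower (7); the highest labelled point, GRE1, stands 3.18 above 0.

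The largest rises included genes known from drying, stationary phase and spore formation. GRE1, which encodes a hydrophilin made under osmotic stress and drying, gave 252.5, 236.1 and 297.1 at 5 g/L, against 28.7, 27.1 and 30.9 at 3 g/L. The 3 arrays of 5 g/L lay far above those of 3 g/L, a 9.03-fold difference (log2 3.18 ± 0.18 SE, adjusted p = 6.77e-07). SIP18, the second hydrophilin of yeast and a relative of GRE1, gave 131.4, 150.5 and 156.2 at 5 g/L, against 53.3, 32.5 and 36.9 at 3 g/L. The lowest 5 g/L array of SIP18 was above the highest 3 g/L array (log2 1.86 ± 0.21, adjusted p = 0.000317). Next to SIP18 on the chromosome lies PAI3, the cytoplasmic inhibitor of vacuolar proteinase A. PAI3 gave 158.6, 163.7 and 176.3 at 5 g/L, against 72.8, 70.1 and 69.1 at 3 g/L, again without overlap (log2 1.23 ± 0.13, adjusted p = 0.00023). They were the only pair of immediate neighbours among the named genes that rose.

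SPS100, a gene for the maturation of the spore wall, was within background on all 3 g/L arrays. It gave 64.5, 64.5 and 60.7 at 5 g/L, against 8.7, 8.9 and 8.8 at 3 g/L, and was at least 4.68-fold higher at 5 g/L when the background level stands for 3 g/L (adjusted p = 0.00487). The small open reading frame YCL048W-A was likewise within background at 3 g/L, with 1.4, 10.3 and 8.3, and reached 40.6, 45.9 and 51.2 at 5 g/L (at least 3.40-fold, adjusted p = 0.0283). Its fitted log2 difference of 3.18 rests in part on the lowest of these values, which was raised to a floor of 1.5, and it was 2.22 within 1 fluidics run that does not hold that array, 3 g/L replicate 1. YKL107W was the third gene within background at 3 g/L (12.9, 10.4 and 8.0) and gave 35.6, 38.8 and 32.9 at 5 g/L (at least 2.65-fold, adjusted p = 0.00601). SPG4, needed for survival in stationary phase at high temperature, gave 404.2, 332.7 and 352.4 at 5 g/L, against 65.7, 84.8 and 80.7 at 3 g/L (log2 2.24 ± 0.16, adjusted p = 6.73e-06). Every 5 g/L array of these 4 genes was above every 3 g/L array.

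**Figure D2:**
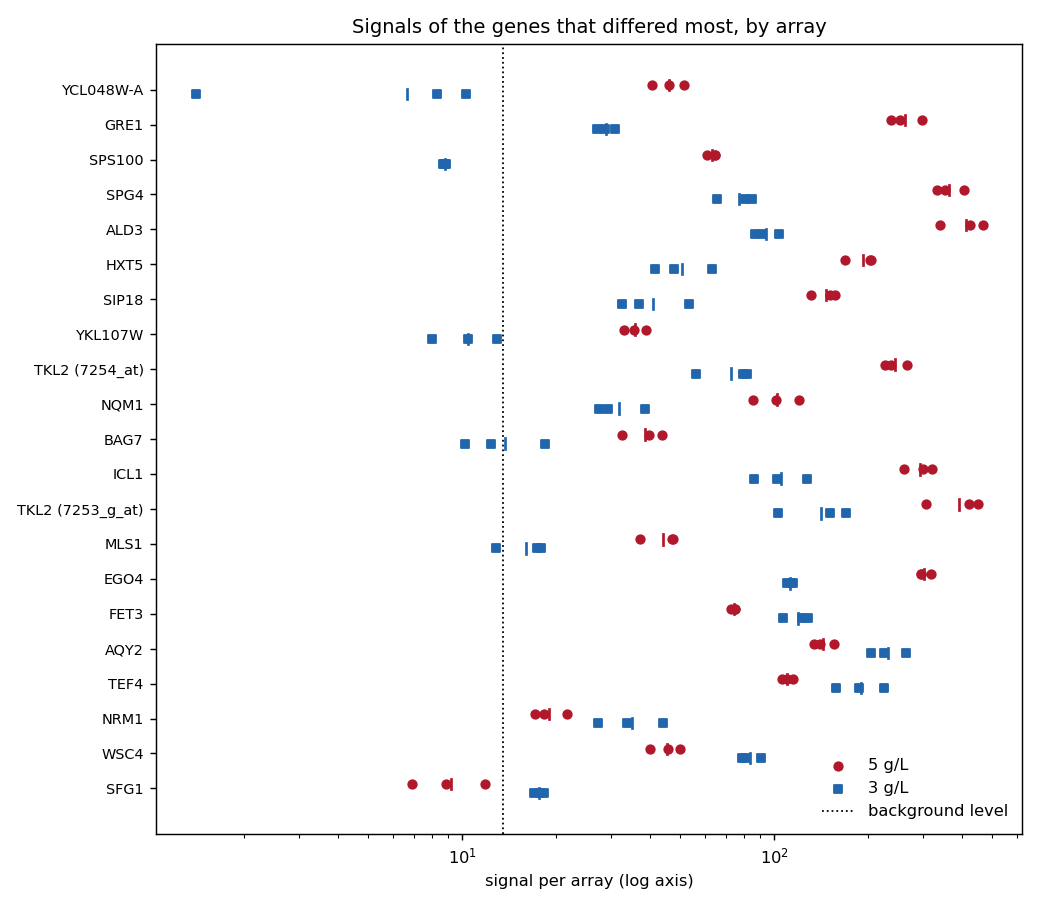
Signals per array, on a log axis, of the probe sets with the largest rises and falls among those with 1 gene name; red circles are the 3 arrays of 5 g/L, blue squares the 3 arrays of 3 g/L, short vertical lines their means and the dotted line the background level of 13.5. The rows were chosen from probe sets that passed with no overlap between the 2 groups of symbols, so none overlaps. YCL048W-A, SPS100 and YKL107W have all 3 g/L arrays left of the dotted line.

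Of the 26 genes of a general stress list, all tested, 10 rose and none fell; over all 5209 genes tested, 1.02% rose and 0.096% fell. This list, like the others, was written with earlier results of these data known. Its counts describe its members and are not an independent test of enrichment. For 17 of the 26 the 3 arrays of 5 g/L lay above those of 3 g/L, against 10.2% of all genes, and for 0 they lay below. The list's median log2 difference was 0.61, against 0.06 over all genes. Beside GRE1, SIP18, PAI3 and SPS100, the genes that rose were SSA3, RTN2, GAD1, HSP104, HSP26 and SOL4. HSP26, a small heat shock protein that holds unfolded proteins, gave 702.9, 667.1 and 757.0 at 5 g/L, against 410.5, 451.2 and 475.3 at 3 g/L (log2 0.67 ± 0.14, adjusted p = 0.041). HSP104, the chaperone that takes apart protein aggregates, gave 251.0, 245.7 and 272.0 at 5 g/L, against 155.9, 148.5 and 156.2 at 3 g/L (log2 0.74 ± 0.16, adjusted p = 0.0455). The arrays of neither gene overlapped between the groups. SSA3, a stress-induced Hsp70 chaperone, had a log2 difference of 1.17, RTN2, a reticulon of the endoplasmic reticulum, 1.13, and GAD1, glutamate decarboxylase, 0.79. CTT1, the cytosolic catalase, had a log2 difference of 1.21 and TFS1, an inhibitor of carboxypeptidase Y, 0.66, and neither passed (adjusted p = 0.0659 and 0.059). SSA4, another Hsp70, did not pass at 0.56 (adjusted p = 0.0757). In a separate list of 20 heat shock chaperones, 0 passed, 7 had all 5 g/L arrays above, and the median was 0.29. That list does not hold HSP26, HSP104 and SSA3, the chaperone genes that passed and were counted in the general stress list.

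Among the stress-related genes outside that list, HSP30, a plasma membrane protein that limits the proton pump, gave 1372, 1490 and 1684 at 5 g/L, against 644.6, 756.7 and 902.9 at 3 g/L (log2 0.99 ± 0.15, adjusted p = 0.00487). MSC1 gave 572.6, 599.1 and 655.2 at 5 g/L, against 253.1, 281.2 and 295.2 at 3 g/L (log2 1.14 ± 0.16, adjusted p = 0.00234). Both were well above background and did not overlap. TSA2, a peroxiredoxin, was the only one of 25 oxidative stress genes to pass (0.97, adjusted p = 0.0423), where 1.02% of all genes rose. CIN5, a bZIP transcription factor of salt tolerance, rose by 0.97, and DCS2, a stress-induced relative of the mRNA decapping scavenger, by 0.87.

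Some genes for the use of non-fermentable carbon rose. Of 10 gluconeogenesis and glyoxylate cycle genes tested, 3 rose, none fell (1.02% and 0.096% of all genes) and the median log2 difference was 0.70. That median depended on how low signals were treated, at 0.33 with log2(signal + 16) and 1.00 with a stricter filter that left 3 genes. ICL1, isocitrate lyase, which opens the glyoxylate cycle, gave 300.2, 259.9 and 319.0 at 5 g/L, against 86.0, 101.7 and 127.6 at 3 g/L (log2 1.49 ± 0.25, adjusted p = 0.0101). MLS1, malate synthase, the next enzyme of that cycle, gave 37.0, 47.5 and 47.1 at 5 g/L, against 17.3, 17.9 and 12.8 at 3 g/L (log2 1.46 ± 0.18, adjusted p = 0.00097). MDH2, the cytosolic malate dehydrogenase, gave 48.0, 79.5 and 63.9 at 5 g/L, against 26.6, 29.7 and 38.7 at 3 g/L (log2 1.00 ± 0.18, adjusted p = 0.0203). The arrays of all 3 enzymes were apart, the nearest being those of MDH2. PCK1, the gluconeogenic carboxykinase, had a log2 difference of 0.25 (adjusted p = 0.807), with means of 26.9 ± 2.65 at 5 g/L and 22.9 ± 5.01 at 3 g/L (SD, n = 3 each), and its arrays overlapped. CAT2, the carnitine acetyltransferase that carries acetyl groups into mitochondria, was the only one of 16 fatty acid oxidation and carnitine genes to pass (log2 0.79 ± 0.16, adjusted p = 0.041). For 8 of those 16 the 5 g/L arrays lay above and for 0 below (10.2% and 3.82% of all genes), and the median was 0.45. YAT1, a second carnitine acetyltransferase, gave 723.7, 860.7 and 784.9 at 5 g/L, against 471.1, 476.8 and 567.4 at 3 g/L, and did not pass (log2 0.65 ± 0.21, adjusted p = 0.277).

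HXT5 was the only one of 8 hexose transporter genes tested that passed (1.02% of all genes rose and 0.096% fell). It encodes a transporter of moderate affinity that is known to be made by slowly growing and starved cells rather than in answer to the sugar outside. It gave 168.0, 204.4 and 202.6 at 5 g/L, against 41.4, 47.6 and 63.3 at 3 g/L, so that the lowest 5 g/L array was far above the highest 3 g/L array (log2 1.93 ± 0.16, adjusted p = 3.19e-05). The low-affinity transporter HXT1 gave 687.3, 827.2 and 580.5 at 5 g/L, against 346.3, 506.4 and 604.3 at 3 g/L, which overlapped (log2 0.55 ± 0.27, adjusted p = 0.597). The high-affinity transporters HXT6 and HXT7, whose near-identical sequences can share signal, had log2 differences of -0.44 and -0.31 (adjusted p = 0.518 and 0.621). The alpha-glucoside transporter genes MAL11 (1.05 ± 0.20, adjusted p = 0.0329) and MAL31 (0.85 ± 0.19, adjusted p = 0.0466) rose, and the MAL31 probe set may also detect related transporter genes.

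In the pentose phosphate pathway TKL2, NQM1 and SOL4 rose. TKL2, the minor transketolase, rose on 3 probe sets by 1.03, 1.49 and 1.76 log2 (adjusted p = 0.0361, 0.0329 and 0.00158). On the last of these it gave 226.1, 237.0 and 266.8 at 5 g/L, against 56.1, 82.0 and 79.1 at 3 g/L. NQM1, the minor transaldolase, gave 85.2, 119.6 and 101.6 at 5 g/L, against 27.5, 29.2 and 38.4 at 3 g/L (log2 1.69 ± 0.20, adjusted p = 0.000878). SOL4, a 6-phosphogluconolactonase, gave 473.7, 616.6 and 493.8 at 5 g/L, against 304.3, 358.6 and 332.5 at 3 g/L (log2 0.66 ± 0.14, adjusted p = 0.0438). None of these arrays overlapped between the groups. The main transketolase TKL1 had a log2 difference of -0.14 (adjusted p = 0.849) and the main transaldolase TAL1 of -0.21 (adjusted p = 0.805). GND1, the main 6-phosphogluconate dehydrogenase, had -0.30 (adjusted p = 0.524) with all 5 g/L arrays below. GND2, its minor partner, had 0.96 with overlapping arrays (adjusted p = 0.525), and its estimate varied with the arrays used, as given below for the fluidics runs. Whether a minor isoenzyme differed from its main partner in response was not tested. Of the list's 13 genes, 3 rose, none fell (1.02% and 0.096% of all genes) and the median was -0.14.

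ALD3, a cytosolic aldehyde dehydrogenase induced by stress, gave 423.4, 340.6 and 466.6 at 5 g/L, against 103.5, 86.9 and 91.1 at 3 g/L (log2 2.12 ± 0.21, adjusted p = 0.000172). The groups were far apart, and ALD3 was the only one of 16 genes of ethanol and acetate metabolism to pass. A probe set that ALD3 shares with its neighbour and near copy ALD2 also rose, whereas a probe set for ALD2 alone gave 22.9, 20.7 and 22.4 at 5 g/L, against 16.2, 12.2 and 15.3 at 3 g/L (log2 0.60 ± 0.23, adjusted p = 0.407). CYC7, the cytochrome c isoform of low oxygen and stress, rose by 0.90 (adjusted p = 0.0369) and was the only one of 36 respiratory genes to pass. PDE1, the low-affinity cAMP phosphodiesterase, rose by 0.89 (adjusted p = 0.0451), the only one of 23 glucose signalling genes. PIG2, a putative regulator of glycogen synthase phosphatase, rose by 0.69 (adjusted p = 0.0473), the only one of 19 trehalose and glycogen genes. Of the 19 trehalose and glycogen genes, 9 had all 5 g/L arrays above and 0 all below (10.2% and 3.82% of all genes), and the median was 0.30. Over all genes tested 1.02% rose, so 1 passing member says little about any of these lists as a whole. DAK2, a dihydroxyacetone kinase, gave 326.2, 456.8 and 376.1 at 5 g/L, against 122.7, 152.6 and 164.4 at 3 g/L, and did not pass in spite of its size (log2 1.40 ± 0.36, adjusted p = 0.108).

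**Figure D3:**
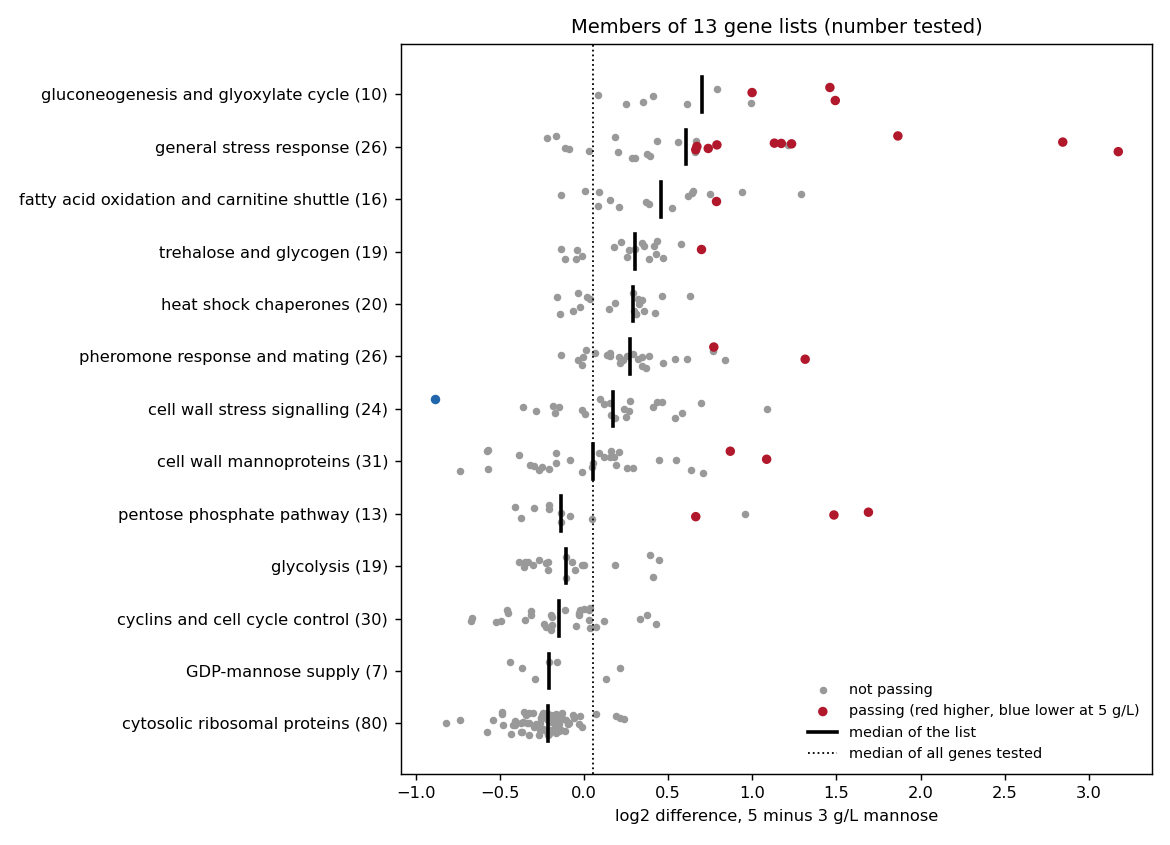
Log2 difference of 5 minus 3 g/L for each tested member of 13 gene lists (number of members in brackets); grey points did not pass, red points passed as higher and blue as lower at 5 g/L. Black bars are list medians and the dotted line is the median of all 5209 genes, 0.06. The bars of the gluconeogenesis and general stress lists stand at 0.70 and 0.61 (0.33 and 0.53 with log2(signal + 16)). That of the cytosolic ribosomal proteins stands at -0.22. Without the arrays whose fluidics record was not completed it was -0.05, where all genes had -0.03.

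Genes of mannose use and of the mannoprotein wall were mostly without a passing difference, as were genes at large. Over all genes tested 1.02% rose and 0.096% fell. AMS1, the vacuolar alpha-mannosidase that frees mannose from glycans, gave 150.7, 174.8 and 164.6 at 5 g/L, against 72.8, 80.2 and 89.3 at 3 g/L (log2 1.02 ± 0.15, adjusted p = 0.00487), without overlap. None of the 7 genes of GDP-mannose supply passed. PSA1, GDP-mannose pyrophosphorylase, gave 712.6, 617.6 and 713.5 at 5 g/L, against 950.9, 923.3 and 898.3 at 3 g/L (log2 -0.44 ± 0.15, adjusted p = 0.297). SEC53, phosphomannomutase, gave 508.7, 598.1 and 600.7 at 5 g/L, against 753.9, 687.2 and 758.6 at 3 g/L (log2 -0.37 ± 0.13, adjusted p = 0.369). Both had all 5 g/L arrays below all 3 g/L arrays, which held for 2 of these 7 genes and for 3.82% of all genes tested. None passed among 20 O-mannosylation genes, 11 of Golgi mannan synthesis, 26 of N-glycan assembly and 23 of GPI anchor synthesis, and their medians were 0.01, 0.01, -0.09 and -0.01. With so few passing among all genes, the lack of a passing member says little about lists of this size.

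Of 31 wall mannoprotein genes, 2 rose, where 1.02% of all genes did. PIR3, a wall protein bound to beta-glucan, gave 146.9, 165.9 and 142.9 at 5 g/L, against 62.0, 77.1 and 76.3 at 3 g/L (log2 1.08 ± 0.18, adjusted p = 0.0102). SPI1, a GPI-linked wall protein of stationary phase and acid stress, gave 900.9, 941.5 and 831.6 at 5 g/L, against 494.7, 511.0 and 458.0 at 3 g/L (log2 0.87 ± 0.18, adjusted p = 0.041). Of the 31, 7 had all 5 g/L arrays above and 4 all below, where 10.2% and 3.82% of all genes had. ECM33 and CIS3 were among the 4 and did not pass. ECM33, a GPI protein of wall organisation, gave 1406, 1375 and 1301 at 5 g/L, against 1845, 2096 and 2133 at 3 g/L (log2 -0.57 ± 0.14, adjusted p = 0.0942). CIS3, a relative of PIR3, gave 346.5, 421.7 and 383.1 at 5 g/L, against 590.8, 556.3 and 559.5 at 3 g/L (log2 -0.57 ± 0.14, adjusted p = 0.102). Among 24 genes of wall stress signalling, WSC4 fell, where 0.096% of all genes did. This member of the WSC sensor family gave 39.9, 49.9 and 45.6 at 5 g/L, against 79.0, 80.4 and 90.4 at 3 g/L (log2 -0.89 ± 0.15, adjusted p = 0.015). BAG7, a GTPase-activating protein for Rho1, the switch of the wall integrity pathway, rose by 1.53 ± 0.34 (adjusted p = 0.0477), with 32.4, 43.8 and 39.7 at 5 g/L, against 18.4, 10.2 and 12.4 at 3 g/L, where 2 arrays were within background. SLT2, the kinase of that pathway, gave 127.2, 150.0 and 119.8 at 5 g/L, against 68.6, 93.1 and 107.1 at 3 g/L and did not pass (log2 0.58 ± 0.20, adjusted p = 0.312).

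The pheromone-regulated membrane protein genes PRM4 (log2 1.31 ± 0.23, adjusted p = 0.0158) and PRM8 (0.77 ± 0.17, adjusted p = 0.046) rose, 2 of 26 mating genes tested. Over all genes tested 1.02% rose. PRM4 gave 56.5, 66.8 and 56.2 at 5 g/L, against 23.7, 23.4 and 24.9 at 3 g/L, with tight groups well apart. The transport genes that rose included CTR3, a high-affinity copper transporter, with 188.7, 247.3 and 177.2 at 5 g/L, against 75.4, 83.5 and 91.3 at 3 g/L (log2 1.28 ± 0.17, adjusted p = 0.00145). SOA1, a sulfur compound transporter, rose by 0.67, and BDS1, a sulfatase, by 0.97 on 1 of its 3 tested probe sets, while the other two did not pass at 0.41 and 0.59. The eisosome-related genes SEG2 and YNL194C rose by 1.24 and 1.08. EGO4, a small gene named after the EGO complex, gave 295.1, 316.6 and 294.8 at 5 g/L, against 112.7, 110.0 and 114.8 at 3 g/L (log2 1.43 ± 0.14, adjusted p = 0.000172). FMS1, a polyamine oxidase, rose by 1.03, HBT1, a protein of polarized cell shape, by 1.03, and SHH3, a relative of the succinate dehydrogenase subunit Sdh3, by 1.33. The other named genes that rose were FMP16, YJR096W, YOR385W, MHO1, YMR196W, PUN1, PHM7 and SRL3, with log2 differences of 0.71 to 1.24. Of the 60 named genes that passed, 28 were list members that passed on their brightest probe set. The other 32 include TEF4 and BDS1, whose brightest probe sets did not pass, whether or not a list holds them. Genes outside the rule for naming genes are given so that each gene that passed is accounted for.

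Few genes fell. FET3, the multicopper oxidase of high-affinity iron uptake, gave 74.8, 72.6 and 75.0 at 5 g/L, against 122.8, 106.7 and 128.4 at 3 g/L (log2 -0.68 ± 0.14, adjusted p = 0.0417). Its partner, the iron permease FTR1, gave 79.7, 96.5 and 78.6 at 5 g/L, against 110.7, 117.5 and 115.6 at 3 g/L and did not pass (log2 -0.44 ± 0.17, adjusted p = 0.418). Both had all 5 g/L arrays below. In a list of 20 iron uptake and siderophore genes tested, 2 had all 5 g/L arrays below and 0 above, where 3.82% and 10.2% of all genes had. FET3 was the 1 member that passed, where 0.096% of all genes fell. The list's median log2 difference was 0.08, against 0.06 over all genes, so the list as a whole was not lower. AQY2, a water channel, gave 134.1, 155.0 and 139.8 at 5 g/L, against 224.1, 265.1 and 203.5 at 3 g/L (log2 -0.69 ± 0.15, adjusted p = 0.0477). NRM1, a co-repressor of G1/S genes, gave 17.1, 18.3 and 21.6 at 5 g/L, against 27.2, 33.8 and 44.0 at 3 g/L (log2 -0.86 ± 0.17, adjusted p = 0.0369). The groups of both genes were apart. SFG1, a transcription factor of filamentous growth, was within background at 5 g/L with 8.9, 11.8 and 6.9, against 17.0, 17.7 and 18.3 at 3 g/L (at least 1.31-fold lower, adjusted p = 0.041). TEF4, which encodes a translation elongation factor subunit, fell on 1 probe set (log2 -0.77 ± 0.17, adjusted p = 0.0473), while its brighter probe set did not pass at -0.26.

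Growth-related lists had no member that passed on its brightest probe set, where 1.02% of all genes rose and 0.096% fell. Of 80 cytosolic ribosomal protein genes with a probe set of their own, 76 had an estimate below 0. Their median was -0.22, against 0.06 over all genes. The share of all genes with an estimate below 0 was not counted. The arrays were apart downwards for 9 of the 80 and upwards for 0, where 3.82% and 10.2% of all genes were. The median was -0.10 with quantile normalization and -0.25 with median scaling, where that of all genes was 0.02 in both. It was -0.05 without the arrays whose fluidics record was not completed, close to the -0.03 of all genes in that setting. None of 30 cyclin and cell cycle genes passed, in a list that does not hold NRM1, which fell. Of the 30, 5 had all 5 g/L arrays below and 1 above, against the same 3.82% and 10.2%. WHI5, the inhibitor of G1 exit, gave 13.3, 13.1 and 13.6 at 5 g/L, against 21.5, 20.3 and 21.9 at 3 g/L (log2 -0.67 ± 0.18, adjusted p = 0.137), close to background. Of the 43 lists, 29 had no member that passed in either direction, among them glycolysis (19 genes), the TCA cycle (23), amino acid synthesis (66), the proteasome (34) and ergosterol synthesis (27).

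The 5 and 3 g/L arrays were spread over 3 fluidics runs, inferred from the station and time in the array records. One run held 5 g/L replicates 1 and 2 and 3 g/L replicates 2 and 3. Within that run all 68 probe sets kept their direction, and their log2 differences were a median of 0.954 times those from all arrays (range 0.699 to 1.307). GRE1 differed by 3.08 there, SPG4 by 2.15, ALD3 by 2.09, SIP18 by 2.02, HXT5 by 1.76, ICL1 by 1.29, HSP26 by 0.56, WSC4 by -0.93 and FET3 by -0.67. With 2 arrays against 2, 2 probe sets passed, those of GRE1 (adjusted p = 0.0194) and SPS100 (adjusted p = 0.0194). With the run as a block over all 15 arrays 15 passed, 13 of them among the 68, with ALD3, SPG4, SIP18, PAI3, HXT5, NQM1, MLS1, EGO4, CTR3, YKL107W and NRM1 beside GRE1 and 1 probe set without a gene of its own. The run block leaves the 5 against 3 g/L difference to the same 4 arrays. GND2, which is not among the 68, also passed with the run block (log2 1.61 ± 0.24, adjusted p = 0.0213). Without the arrays whose fluidics record was not completed GND2 had 0.52 ± 0.56 (adjusted p = 0.924).

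The genes that rose at 5 g/L were compared with their levels at the lower concentrations, a comparison chosen after seeing the data. Between 0.75 and 1 g/L, 6 arrays that share none with 5 or 3 g/L, 52 of the 61 probe sets were lower at 1 g/L and 0 were higher, where 15.2% of all probe sets were lower and 22.1% higher. Their median log2 difference of 1 against 0.75 g/L was -2.27, against 0.11 over all probe sets. Both comparisons use the same estimate of each probe set's spread. The 0.75 g/L arrays were all in 1 fluidics run and the 1 g/L arrays in another, so run and concentration cannot be told apart there. Over the whole range the 61 thus had a median log2 level, relative to 3 g/L, of 1.77 at 0.75 g/L, -0.47 at 1 g/L, -0.14 at 1.5 g/L and 1.05 at 5 g/L. The highest of the 5 means was at 0.75 g/L for 36 and at 5 g/L for 25, and the lowest at 1 g/L for 32. The 61 were chosen for a higher level at 5 than at 3 g/L, so that part of the profile is no separate result. None of them could have its highest mean at 3 g/L, and an error in the 3 g/L arrays moves every level given relative to them. The same counts over all probe sets were not made, so these describe the 61 only.

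**Figure D4:**
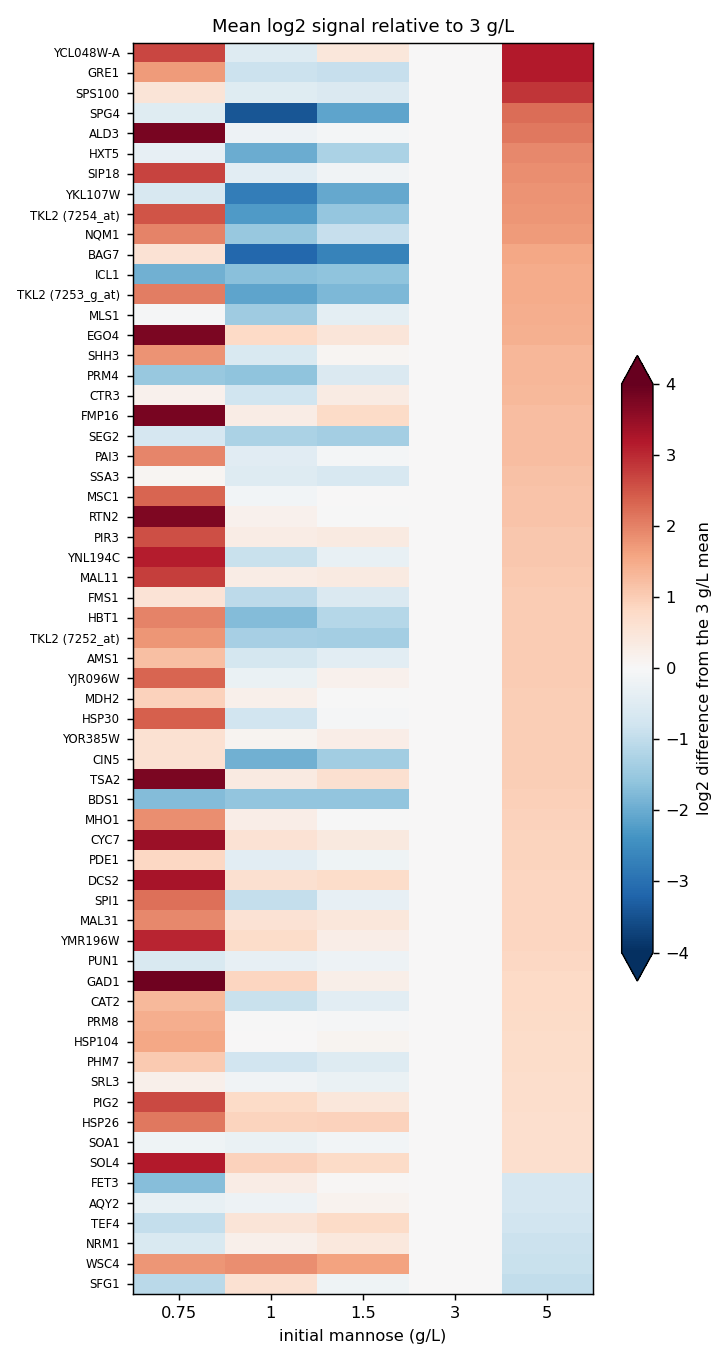
Mean log2 signal at each initial mannose concentration relative to the 3 g/L mean, for the 62 probe sets with 1 gene name that passed, sorted by the difference at 5 g/L (red above, blue below the 3 g/L mean; the colour scale ends at 4 either way). Most rows that are red at 5 g/L are also red at 0.75 g/L and pale or blue at 1 and 1.5 g/L, with ICL1, PRM4 and BDS1 blue at 0.75 g/L.

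Single genes show how the profiles varied. EGO4 had means of 1517 ± 84.3, 196.1 ± 17.5, 160.2 ± 25.8, 112.5 ± 2.41 and 302.2 ± 12.5 at 0.75, 1, 1.5, 3 and 5 g/L (SD, n = 3 each), so its highest mean was at 0.75 g/L. HSP30 and GAD1 also had their highest mean at 0.75 g/L, with 1515 ± 157 and 81.2 ± 3.19 at 5 g/L, against 4028 ± 87.3 and 697.5 ± 42.0 at 0.75 g/L. HXT5 had means of 39.4 ± 2.39, 12.7 ± 0.85, 20.7 ± 1.19, 50.8 ± 11.3 and 192 ± 20.5 over the same series and was highest at 5 g/L. ICL1 had 27.5 ± 4.70, 33.6 ± 10.1, 34.9 ± 9.92, 105 ± 21.0 and 293 ± 30.2, and its step between 0.75 and 1 g/L did not pass (log2 0.27 ± 0.25, adjusted p = 0.424). GRE1 had 93.9 ± 6.42, 16.1 ± 3.50, 15.3 ± 3.07, 28.9 ± 1.91 and 262 ± 31.6, highest at 5 g/L and second at 0.75 g/L. Of the 7 probe sets that fell at 5 g/L, 4 were higher at 1 than at 0.75 g/L, those of FET3, TEF4, NRM1 and SFG1. None was lower, where 22.1% of all probe sets were higher and 15.2% lower. Run and concentration cannot be told apart there either. WSC4, by contrast, had 283 ± 33.4, 306 ± 33.4, 257 ± 27.1, 83.3 ± 6.22 and 45.1 ± 5.02, lower at 3 and 5 g/L than at each lower concentration.

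**Figure D5:**
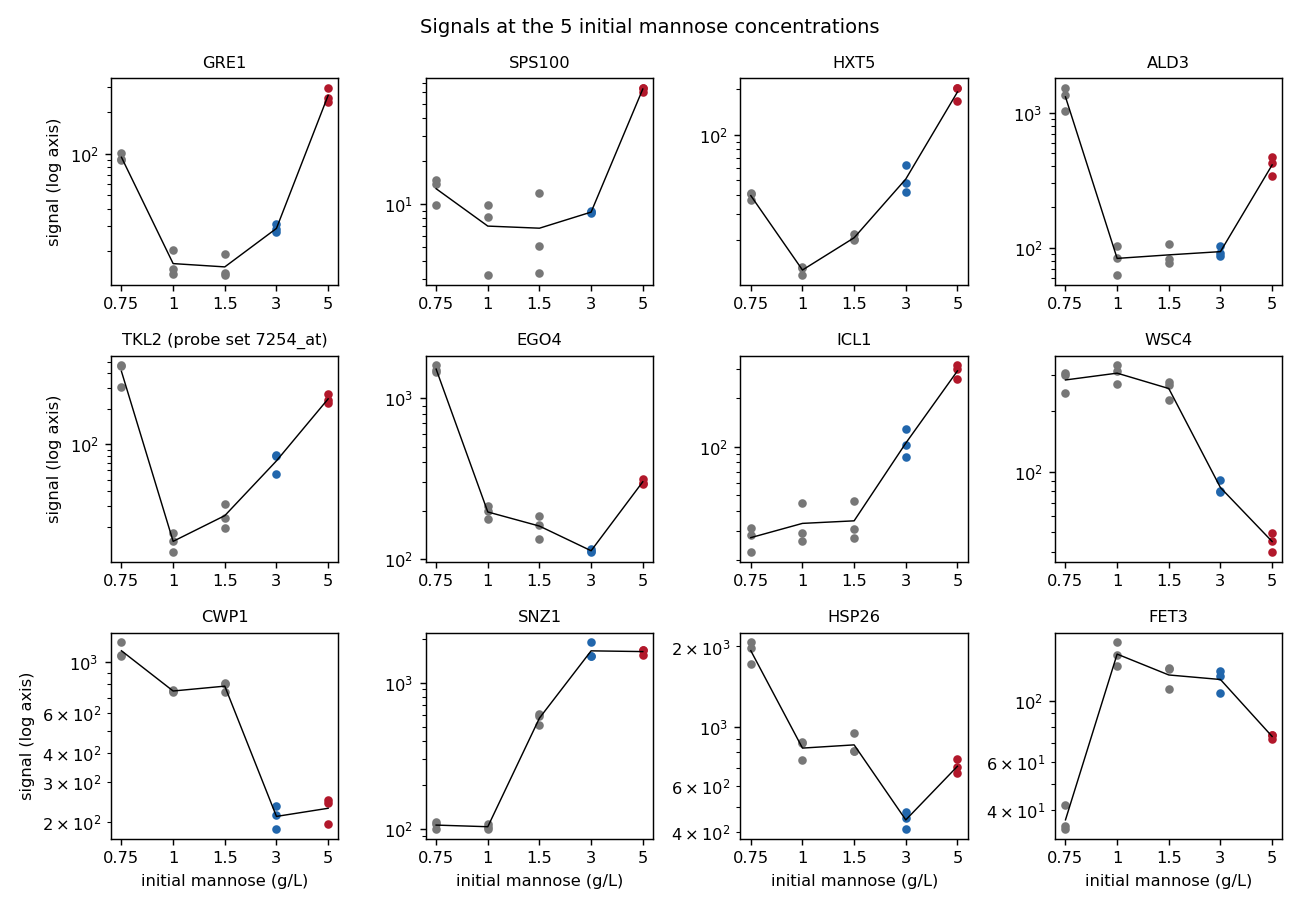
Signals of 12 named genes at the 5 initial mannose concentrations, low to high, on log axes that differ between panels; points are single arrays (red 5 g/L, blue 3 g/L, grey the others) and lines join the means. ALD3, EGO4 and HSP26 are lower at 1, 1.5 and 3 g/L than at 0.75 g/L and higher at 5 than at 3 g/L, TKL2 and HXT5 are lowest at 1 g/L and higher at each concentration after it, and CWP1 and SNZ1 are level between 3 and 5 g/L.

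Whether a gene's step between 3 and 5 g/L differed from its step between 1.5 and 3 g/L was tested as a difference of the differences. Both steps use the 3 g/L arrays, so an error there moves them in opposite directions. Of 6959 probe sets, 12 passed (0.172%), 9 with a larger value for the step to 5 g/L (0.129%) and 3 with a smaller one (0.0431%). The steps differ in size, and with each step taken per doubling of mannose 10 passed, 10 with a larger and 0 with a smaller value for the step to 5 g/L. Of the 12, 8 still passed per doubling, and COX26, UBC11, SNZ1 and SNO1 did not. CWP1, a wall mannoprotein, had a log2 difference of 0.12 ± 0.14 for 5 against 3 g/L and -1.90 ± 0.14 for 3 against 1.5 g/L, a difference of 2.01 ± 0.25 (adjusted p = 0.00766). EGO4 had 1.43 and -0.50 for the 2 steps (difference 1.92 ± 0.25, adjusted p = 0.00766), HSP26 0.67 and -0.94 (1.61 ± 0.24, adjusted p = 0.0182), and SOL4 0.66 and -0.78 (1.44 ± 0.24, adjusted p = 0.0363). GRE1 had 3.18 and 0.94 (2.24 ± 0.31, adjusted p = 0.0139), ALD3 2.12 and 0.09 (2.03 ± 0.37, adjusted p = 0.0492), and CTR3 1.28 and -0.33 (1.61 ± 0.29, adjusted p = 0.0446). COX26, a cytochrome oxidase subunit, was within background at 3 g/L on all 3 arrays (10.9, 5.2 and 6.1), so its steps have only bounds. At 5 g/L it gave 12.5, 17.4 and 12.1, of which only 17.4 was above background. The bound of at least 1.04-fold higher at 5 than at 3 g/L thus rests on that array, and a rise is not shown. It was at least 1.83-fold lower at 3 than at 1.5 g/L (adjusted p = 0.0446 for the difference of steps, 0.0611 per doubling). In the other direction, UBC11, a ubiquitin-conjugating enzyme, had 0.74 for 5 against 3 g/L. It was within background at 1.5 g/L on all 3 arrays (1.4, 0.8 and 3.7) and at least 2.45-fold higher at 3 than at 1.5 g/L (adjusted p = 0.0182 for the difference of steps, a value that rests on the floor, and 0.0803 per doubling). SNZ1 and SNO1, neighbouring genes of vitamin B6 synthesis, had -0.01 and 1.52 (-1.53 ± 0.24, adjusted p = 0.0182) and 0.17 and 2.02 (-1.84 ± 0.31, adjusted p = 0.0341). Per doubling their adjusted p were 0.0531 and 0.0936. SNZ1 gave 1676, 1549 and 1670 at 5 g/L, against 1898, 1524 and 1531 at 3 g/L, which overlapped. The twelfth probe set was the one shared by ALD2 and ALD3. None of the 12 passed with the fluidics run as a block, without the arrays of incomplete record, or from the 9 arrays of 1.5, 3 and 5 g/L alone.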

How the data were processed

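Total RNA of each culture was measured on Affymetrix yeast S98 arrays. The authors deposited a signal intensity per probe set and array on a linear scale, and the values themselves share a trimmed mean near 100 on every array; no source used here names the algorithm that made them. The array records, deposited as text, served for the fluidics station and time alone. Of 9335 probe sets, 6504 had 1 gene symbol, 328 several and 2503 none. Signals were raised to a floor at their 10th percentile (1.5) and taken to log2; 60 control probe sets and any probe set whose mean signal was under 6.44, the 25th percentile, were dropped, and 6959 were tested. A model of the 5 concentration means over all 15 arrays was fitted with limma 3.58.1 in R 4.3.3 and empirical Bayes moderation (13.7 degrees of freedom), with Benjamini-Hochberg adjustment over all 6959 and a threshold of 0.05. Errors are SE unless SD is written. A gene was counted by its brightest probe set (5209 genes). Genes were named by rule: PMI40, up to 15 largest rises and 15 largest falls that passed without overlap, up to 4 per list with the smallest p, and the leading genes of the step difference. The comparison, lists and named genes were chosen with earlier results of these data known. In data simulated for 5 against 3 g/L on 6959 probe sets, 8 of 67 changes of 1.5-fold, 42 of 67 of 2-fold and 65 of 66 of 4-fold were recovered, with 4.17% false calls. The simulated arrays were independent and held no effect of fluidics run, so these rates may not hold for the real arrays. Same-numbered arrays of 5 and 3 g/L correlated in their deviations by 0.0889 to 0.229, over 0.1 in 1 of 3 pairs, so the numbers were not taken to pair the arrays. The number of arrays limits the precision. No sequences are printed.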

Additional observations from a re-analysis of the deposited data

How the results depend on the processing

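All 68 probe sets kept their direction in each of 19 other settings in which they were tested, and GRE1 alone passed in all 19. The count of 68 moved to 112 with log2(signal + 16) and no floor, 40 without the filter on low signals, 29 from the 6 compared arrays alone, 15 with the fluidics run as a block, 10 without the arrays whose fluidics record was not completed and 2 within the run that holds both concentrations. It lay between 50 and 88 under quantile normalization, median scaling, other floors, a stricter filter and an intensity trend. The arrays of incomplete record are all those of 0.75 g/L, 3 g/L replicate 1 and 5 g/L replicate 2. Without them 2 arrays of 5 g/L are compared with 2 of 3 g/L, so the fall to 10 also reflects fewer arrays. Leaving out 1 array gave 24 to 42: 26, 29 and 42 without 3 g/L replicates 1, 2 and 3, and 38, 28 and 24 without 5 g/L replicates 1, 2 and 3. With the replicate block 33 of the 68 and no other probe set passed, and the step difference had 5, but the numbers were not found to pair the arrays.

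The 12 probe sets of the step difference became 46 with log2(signal + 16), 33 with a filter at the 50th percentile, 24 with an intensity trend, 7 without the filter and 10 per doubling of mannose, 0 of these 10 in the smaller direction. They became 0 with the run as a block, without the arrays of incomplete record and from the 9 compared arrays, where limma gave 288, 400 and 530 at an unadjusted p below 0.05. If nothing differed, a share of about 0.05 of the 6959 probe sets tested would be counted so, and the 288 was under that share. Leaving out 1 array gave 0 to 11: 6, 0 and 3 without 3 g/L replicates 1, 2 and 3, and 11, 5 and 7 without 5 g/L replicates 1, 2 and 3; the 0 had 482 at an unadjusted p below 0.05. The count of 52 probe sets lower at 1 than at 0.75 g/L was 48 to 56 over the 9 alternatives run, the 48 being of 51 left by the stricter filter. Of the named genes recomputed, 2 that did not pass changed the sign of their 5 against 3 g/L estimate. The median changed sign in 1 or more settings for 21 of the 43 lists, O-mannosylation, Golgi mannan and GPI anchor synthesis among them; their medians were within 0.11 of 0. CWP1 was -0.0197 with the run as a block and within the shared run and -0.039 without the arrays of incomplete record. SNZ1 was 0.16 with quantile normalization, 0.0768 with the run as a block and within the shared run, 0.13 without the arrays of incomplete record, and -0.064 to 0.094 with 1 array left out. The cause of these changes was not tested. Differences of 1.5-fold were mostly not recovered in the simulation with 3 arrays a group, which held no effect of fluidics run. Signals near the background of 13.5 give bounds only.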
